A study of Mus musculus with 6 samples.

Results

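Voltage-gated calcium channels were followed in the hippocampus of mice with L-DL knockdown (KD), through the 10 genes Cacna1a, Cacna1b, Cacna1c, Cacna1d, Cacna1e, Cacna1g, Cacna1h, Cacna1i, Cacna2d1 and Cacna2d3 of 52550 counted genes. They were taken by name as pore-forming or alpha2delta subunits. The rule itself uses no measured value, but the genes were chosen with earlier results of these data known. Cacna1f, Cacna1s, Cacna2d2 and Cacna2d4 are not among them and are described with the other subunits. The 10 genes carried 111 of the 40961 splicing events listed for all genes. All animals were male mice of the C57BL/6 J strain, whose CA1 areas were injected on both sides with adeno-associated virus (AAV) at 8 weeks of age. The control group (3 libraries, called wild type in the sample labels) received a virus with control shRNA, and the L-DL KD group (3 libraries) received a virus with tandem shRNAs against L-DL, the long isoform of the RNA binding protein hnRNP DL. The H1 promoter drove the shRNAs, while a CamkIIα promoter drove the zsGreen marker on the same virus. The control virus was given at a higher titre, and labels of the second group say knockout in one place and knockdown in another. Neither the time of tissue collection nor the number of animals behind each library was given for the sequencing, so that p-values measure the spread between these libraries.

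Voltage-gated calcium channels open when the membrane depolarises and let calcium into the cell, where it triggers transmitter release, dendritic spikes and gene expression. The pore is a single large alpha1 subunit of 4 homologous repeats, and the alpha1 gene decides whether the current is P/Q-type (Cacna1a), N-type (Cacna1b), R-type (Cacna1e), L-type (Cacna1c, Cacna1d) or low-threshold T-type (Cacna1g, Cacna1h, Cacna1i). Beta subunits bring the pore to the membrane, and the extracellular alpha2delta subunits raise its surface level and are the target of gabapentin. Most alpha1 transcripts are also altered by alternative splicing, which exchanges or inserts short protein segments.

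Hnrnpdl, the gene of the knocked-down protein, was counted at similar levels in both groups. It had 176, 184 and 171 CPM (counts per 1000000 gene counts, scaled by the TMM method of edgeR) in the 3 control libraries and 217, 150 and 173 CPM in the 3 libraries labelled KD (log2 fold change 0.03, standard error (SE) 0.12, edgeR adjusted p = 0.898). The groups overlapped, and counts per gene do not separate the long isoform from the others, so the gene counts do not show the knockdown. The second group is therefore called the libraries labelled KD, after their label. The paper assessed the knockdown by immunoblots of L-DL protein in the hippocampus, which gene counts do not measure. Library totals lay between 16052529 and 17913064 gene counts, and between 6760349 and 7939931 junction counts. Markers of several cell types moved with the groups. All 7 microglial markers were higher in the libraries labelled KD (summed 1930 to 2378 CPM against 889 to 1113 CPM in controls), 7 of 8 neuronal markers were lower with Nefl higher, and 5 of 7 GABAergic interneuron markers were lower (summed 219 to 389 CPM against 600 to 673 CPM). Of the CA1 markers 4 of 6 were lower, and of the dentate granule markers 3 of 6 were lower and 1 higher. Of the tested CA2 and CA3 markers 3 of 6 were lower and 1 higher, of the astrocyte markers 2 of 6 were lower and 1 higher, and 3 of 5 endothelial, 1 of 6 oligodendrocyte and 1 of 6 thalamus markers were higher. Hippocampal markers were present in the controls, with Wfs1 at 135 CPM and Prox1 at 148 CPM. No marker was at 0 in all libraries, and choroid plexus markers ranged from 419 to 4517 CPM among the controls and from 29.1 to 5060 CPM among the others. In such bulk tissue, fewer cells of a type and less RNA per cell cannot be told apart.

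All 10 channel genes were well counted, with 572 to 7300 reads per gene and library. Of the 10, 6 were lower and 1 was higher in the libraries labelled KD at an edgeR quasi-likelihood p under 0.05 after Benjamini-Hochberg adjustment over 17621 genes. Among all tested genes 15.0% were called lower and 15.6% higher. The median log2 fold change was -0.42 over the 10 genes and 0.01 over all tested genes. The values of the 2 groups did not overlap in 8 of the 10 genes, against 47.2% of all tested genes. The summed CPM of the 8 neuronal markers ran from 4398 to 4645 in controls and from 2760 to 3229 in the libraries labelled KD (median log2 fold change of the markers -0.56), and its part in the channel values was not tested.

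**Figure D1:**
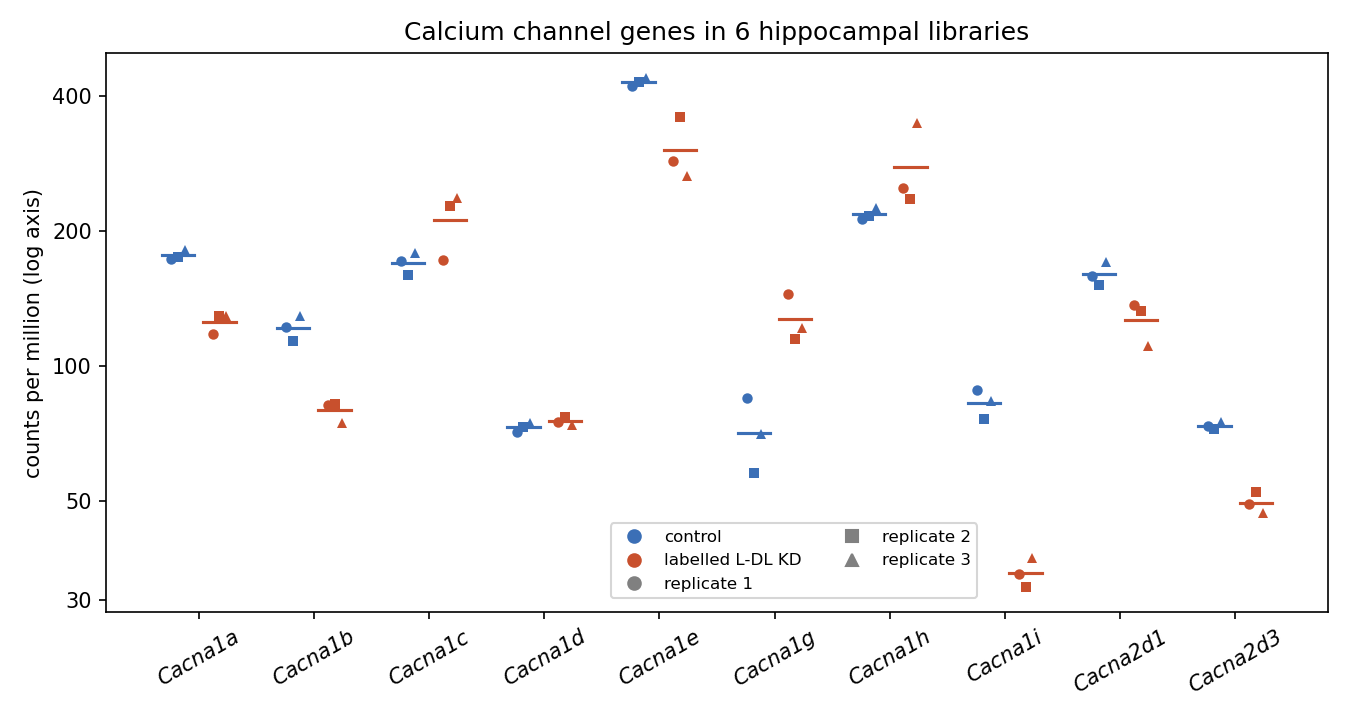
CPM (log axis) of the 10 channel genes in each of the 6 libraries, with controls in blue, libraries labelled KD in orange, marker shapes for replicates and bars for group means. Cacna1i fell from a control mean of 82.5 to 34.5 CPM and Cacna1g rose from 70.9 to 127 CPM, while Cacna1d overlapped between the groups.

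The 3 genes of the presynaptic and R-type channels were all lower in the libraries labelled KD. Cacna1a, the P/Q-type pore of fast transmitter release, had 173, 175 and 181 CPM in the controls and 118, 129 and 129 CPM in the libraries labelled KD. Every control value exceeded every value of the other group, at 0.709 of the control level (log2 fold change -0.50, SE 0.07, adjusted p = 0.00136). Cacna1b, the N-type pore found at many nerve terminals, had 122, 114 and 129 CPM in the controls against 81.9, 82.0 and 74.5 CPM. The groups again lay apart, with a log2 fold change of -0.61 (SE 0.08, adjusted p = 0.00101). Cacna1e, the R-type pore, was the channel gene with the most counts, at 420, 429 and 437 CPM in the controls and 286, 359 and 265 CPM in the libraries labelled KD. Here the second library labelled KD stood nearest to the controls without reaching them (log2 fold change -0.50, SE 0.11, adjusted p = 0.0113).

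Cacna1a also carried the channel segments with the smallest p-values in splicing. The deposited rMATS output counts reads across splice junctions for an inclusion form and a skipping form, and PSI (percent spliced in, here a fraction from 0 to 1) is the inclusion share of the junction counts, each taken per effective length. The first segment is an alternative version of a coding exon of 97 nt, known to encode part of the EF-hand-like region of the cytoplasmic tail. Its exons lie at chr8:84614695-84614791 and chr8:84615574-84615670 (GRCm38, plus strand), the first being exon 37 of transcript Cacna1a-201. Both are shown 5′ to 3′ because their exchange is the event measured, with capitals at the 37 of 97 positions where they differ:
Cacna1a upstream exon: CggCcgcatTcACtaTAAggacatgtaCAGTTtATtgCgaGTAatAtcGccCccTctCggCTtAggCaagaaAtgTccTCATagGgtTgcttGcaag
Cacna1a downstream exon: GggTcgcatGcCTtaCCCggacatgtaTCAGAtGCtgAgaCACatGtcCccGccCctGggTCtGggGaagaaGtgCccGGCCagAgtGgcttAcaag
The upstream exon had a PSI of 0.238, 0.266 and 0.243 in the controls and 0.139, 0.0970 and 0.0826 in the libraries labelled KD. The downstream exon thus dominated everywhere, and the upstream one was read less in each library labelled KD than in any control (PSI change -0.143, log2 odds change -1.48, SE 0.41, edgeR adjusted p = 0.159). The downstream exon was matched to Cacna1a-210, a transcript annotated without coding sequence.

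The other Cacna1a segment was a 36 nt exon near the end of the coding sequence, exon 44 of Cacna1a-201 at chr8:84635549-84635584. Its length keeps the reading frame, and it is shown because no other segment of these genes had a smaller p:
Cacna1a exon 44: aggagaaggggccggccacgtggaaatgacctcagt
Its PSI was 0.951, 0.925 and 0.897 in the controls and 0.828, 0.659 and 0.603 in the libraries labelled KD. The exon was included in most transcripts of the controls and skipped in a sizeable share of those of the other group, with 8, 13 and 17 skipping reads against 18, 41 and 48. The PSI change was -0.227 and the log2 odds change -2.40 (SE 0.52, edgeR adjusted p = 0.0842). Without listed library 1 labelled KD the adjusted p became 0.0418, at a PSI change of -0.293.

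Cacna1e was included at its 57 nt exon in every read of the controls. The exon, number 19 of Cacna1e-203 at chr1:154473857-154473913 on the minus strand, belongs to the cytoplasmic loop between repeats II and III:
Cacna1e exon 19: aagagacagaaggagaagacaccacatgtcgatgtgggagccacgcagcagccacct
PSI was 1 in all 3 controls, from 28, 51 and 38 inclusion reads and no skipping read. A count of 0 allows skipping of up to 10.7%, 5.88% and 7.89% of the reads at these depths, by counting error only. These limits are shares of reads, not scaled by effective length as PSI is. In the libraries labelled KD PSI was 0.960, 0.795 and 0.909, from 2, 12 and 3 skipping reads. Skipping was thus seen only in the libraries labelled KD, at a PSI change of -0.112 (edgeR adjusted p = 0.247), which became -0.0657 without listed library 2 of that group. Another optional coding exon of Cacna1e, 90 nt long, lay between 0.568 and 0.828 in the controls and between 0.614 and 0.708 in the other group. Those values overlapped, with an edgeR adjusted p of 0.840. In Cacna1b a 63 nt exon, known from the same II-III loop, had a PSI of 0.0556, 0.150 and 0.0192 in the controls and 0.114, 0.261 and 0.0767 in the libraries labelled KD. These overlapping values rest on 1 to 7 inclusion reads a library (edgeR adjusted p = 0.697).

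The L-type genes did not pass the expression test. Cacna1c, the L-type pore that couples synaptic activity to transcription, had 171, 159 and 179 CPM in the controls and 172, 227 and 236 CPM in the libraries labelled KD. The first library labelled KD lay among the controls and the other two above them (log2 fold change 0.32, SE 0.12, adjusted p = 0.0797). Leaving out that library gave 0.45 with an adjusted p of 0.00167, and DESeq2 gave 0.32 with an adjusted p of 0.0421. Cacna1d, the L-type pore that opens at lower voltage, had 71.1, 73.0 and 74.4 CPM in the controls and 74.9, 76.8 and 73.8 CPM in the libraries labelled KD. Its 6 values lay within a narrow band, at a log2 fold change of 0.05 (SE 0.06, adjusted p = 0.614).

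Cacna1c held 3 segments at an unadjusted edgeR p under 0.05. Neighbouring ones are a 33 nt exon (exon 32 of Cacna1c-222, chr6:118630399-118630431), known from the linker between segments S3 and S4 of repeat IV, and a 174 nt extension of that same exon at its 5′ splice site (coding in Cacna1c-204, chr6:118630225-118630398). A 60 nt exon (exon 22 of Cacna1c-222, chr6:118674555-118674614) is known as an alternative version of segment S2 of repeat III. The gene is on the minus strand, and the shorter segments are shown since they insert or exchange protein sequence in the channel:
Cacna1c exon 32: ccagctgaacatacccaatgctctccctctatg
Cacna1c exon 22: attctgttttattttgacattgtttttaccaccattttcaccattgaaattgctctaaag
The extension had a PSI of 0.0435, 0.0133 and 0 in the controls and 0.133, 0.0735 and 0.168 in the libraries labelled KD. It was rare in all libraries and higher in the second group without overlap (PSI change 0.106, edgeR adjusted p = 0.245), and without effective lengths the change was 0.183. These values rest on 3, 1 and 0 inclusion reads in the controls and on 11, 10 and 17 in the others. The count of 0 allows inclusion of up to 8.82% of the reads in that control, by counting error only. The 33 nt exon itself was included at 0.966, 1 and 1 in the controls and at 0.968, 0.913 and 0.805 in the libraries labelled KD. The groups overlapped, the PSI change of -0.0936 became -0.0482 without listed library 3 labelled KD, and this segment shares junction reads with its extension (edgeR adjusted p = 0.364). The 60 nt exon had a PSI of 0.107, 0.0487 and 0.107 against 0, 0.0212 and 0.0153. These values lay apart but rest on 2 to 5 inclusion reads in each control and on 0 to 1 in each of the others (edgeR adjusted p = 0.322). Measured against its partner exon in an exon pair event with more reads, the same exon had a PSI of 0.0714, 0 and 0.161 in the controls and 0, 0.0652 and 0.0333 in the libraries labelled KD, which overlapped (edgeR adjusted p = 0.714).

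Exon pairs of the L-type genes showed which version the hippocampus used. In both genes exon 8, which is known to form segment S6 of repeat I, exists as alternative exons of 104 nt. They are printed together with capitals at the differing positions, 32 of 104 in Cacna1c (chr6:118742265-118742368 and chr6:118741871-118741974) and 22 of 104 in Cacna1d (chr14:30171956-30172059 and chr14:30171296-30171399), upstream exon first:
Cacna1c upstream exon 8: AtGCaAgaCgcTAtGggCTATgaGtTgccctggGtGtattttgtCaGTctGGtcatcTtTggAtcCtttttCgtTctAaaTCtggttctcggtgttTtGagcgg
Cacna1c downstream exon 8: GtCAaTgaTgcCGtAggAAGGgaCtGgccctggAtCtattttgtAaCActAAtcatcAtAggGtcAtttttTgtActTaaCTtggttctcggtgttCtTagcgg
Cacna1d upstream exon 8: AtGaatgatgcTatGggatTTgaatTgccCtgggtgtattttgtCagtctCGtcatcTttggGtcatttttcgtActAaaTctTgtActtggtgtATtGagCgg
Cacna1d downstream exon 8: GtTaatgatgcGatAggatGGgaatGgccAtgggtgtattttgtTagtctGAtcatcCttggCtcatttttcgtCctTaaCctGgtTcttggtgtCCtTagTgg
The upstream version of Cacna1c had a PSI of 1, 0.962 and 1 in the controls and 1, 0.989 and 0.865 in the libraries labelled KD. That of Cacna1d had a PSI of 0, 0.137 and 0.323 against 0.0645, 0.0465 and 0.0370. The upstream exon was thus the main one in Cacna1c and the minor one in Cacna1d, and in neither gene did the groups lie apart (edgeR adjusted p = 0.707 and 0.588). A second Cacna1c pair of 84 nt exons, known to encode segment S3 of repeat IV, matched at 49 of 84 positions. Its upstream exon had a PSI of 0.0833, 0.157 and 0.167 in the controls and 0.0556, 0.151 and 0.132 in the libraries labelled KD, which overlap (edgeR adjusted p = 0.916). In Cacna1d the event with the smallest p was listed as a 1050 nt extension at a 3′ splice site. Its PSI was 0.290, 0.619 and 0.375 against 0.268, 0.116 and 0.122. These values did not overlap, at 11 to 26 junction reads a library (edgeR adjusted p = 0.404). The listed extension contains the 60 nt exon 11 of Cacna1d-207, and the events of both have the same skipping reads. That exon alone had a PSI of 0.417, 0.729 and 0.534 against 0.462, 0.232 and 0.193, which overlapped (edgeR adjusted p = 0.475). The extension event thus does not separate a longer exon from inclusion of the 60 nt exon.

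Of the 3 T-type genes, Cacna1g was called higher, Cacna1i lower and Cacna1h neither. Cacna1g, a T-type pore of burst-firing neurons, had 84.7, 57.6 and 70.3 CPM in the controls and 145, 115 and 121 CPM in the libraries labelled KD. It was the 1 channel gene called higher, at 1.79 times the control level (log2 fold change 0.84, SE 0.15, adjusted p = 0.00412). Cacna1i, the T-type pore with the slowest kinetics, had 88.0, 76.2 and 83.4 CPM in the controls and 34.3, 32.1 and 37.2 CPM in the libraries labelled KD. This was the largest change among the 10 genes, to 0.419 of the control level (log2 fold change -1.26, SE 0.09, adjusted p = 0.000133). Cacna1h, a T-type pore also known from sensory neurons, had 212, 215 and 225 CPM in the controls and 249, 235 and 348 CPM in the libraries labelled KD. Its groups did not overlap, but the third library labelled KD stood far above the other two (log2 fold change 0.35, SE 0.14, adjusted p = 0.0942). Without the first or the second library of that group the adjusted p was 0.0453 and 0.0497, and DESeq2 gave 0.0440, at log2 fold changes of 0.43, 0.47 and 0.35. Without the third library of that group the log2 fold change was 0.16, with an adjusted p of 0.136. The ratio of Cacna1g to Cacna1i in CPM per kb of exon went from 0.936, 0.735 and 0.820 in the controls to 4.1, 3.48 and 3.17 in the others, without overlap (two-sided exact permutation test, p = 0.1, which 3 against 3 cannot go below).

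Cacna1g also held 2 neighbouring segments at an unadjusted edgeR p under 0.05, in the linker between repeats III and IV. One is a 21 nt extension of exon 25 (transcript Cacna1g-202, chr11:94425764-94425784), the other a 54 nt exon, number 26 of Cacna1g-207 (chr11:94423671-94423724), both on the minus strand and both keeping the frame:
Cacna1g exon 25 extension: gtaaggagaagcagatggccg
Cacna1g exon 26: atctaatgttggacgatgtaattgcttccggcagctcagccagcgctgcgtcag
The extension had a PSI of 0.0422, 0.201 and 0.306 in the controls and 0.435, 0.476 and 0.426 in the libraries labelled KD. In 1 of its 2 tested events, exon 26 had a PSI of 0.487, 0.855 and 0.895 in the controls and 0.945, 0.951 and 0.961 in the libraries labelled KD. In these events both segments were higher without overlap in the second group, and listed control library 1 had the lowest PSI of both. The other tested event of exon 26, with a mean of 46.8 reads a library against 39.5, gave a PSI of 0.932, 0.909 and 1 in the controls and 0.968, 1 and 1 in the libraries labelled KD. There the groups overlapped, at a PSI change of 0.0424 (edgeR adjusted p = 0.644), so that the value for exon 26 differed with the event that measured it. The PSI change was 0.263 for the extension and 0.207 for exon 26 in its first event (edgeR adjusted p = 0.353 and 0.291). Without listed control library 1 this change of exon 26 was 0.0775 and that of the extension 0.192. A 49 nt extension of exon 31 at its 3′ splice site, a Cacna1g event with more reads, had a PSI of 0.853, 0.841 and 0.949 against 0.858, 0.845 and 0.950. Here the groups matched closely, at a PSI change of 0.00321 (edgeR adjusted p = 0.973).

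Of the alpha2delta genes, Cacna2d1 and Cacna2d3 were lower, while Cacna2d2 and Cacna2d4, which are described with the other subunits, were not called. Cacna2d1, the gabapentin-binding alpha2delta subunit of many excitatory neurons, had 159, 152 and 170 CPM in the controls and 137, 132 and 110 CPM in the libraries labelled KD. It was the smallest of the 6 called decreases (log2 fold change -0.34, SE 0.09, adjusted p = 0.0274). This call was lost in 4 of the 6 fits that each leave out 1 library, without any of the controls or without the second library labelled KD (adjusted p from 0.0520 to 0.0986). It was also lost with the replicate number as a block in the edgeR fit (adjusted p = 0.0548). Cacna2d3, a subunit that gabapentin does not bind, had 73.2, 72.4 and 74.9 CPM in the controls and 49.1, 52.3 and 47.0 CPM in the libraries labelled KD. Its groups lay well apart, at a log2 fold change of -0.57 (SE 0.07, adjusted p = 0.000889).

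A microexon of Cacna2d3 was at an unadjusted edgeR p under 0.05, but not at an adjusted one. It has 18 nt and is exon 14 of Cacna2d3-201, at chr14:29124666-29124683 on the minus strand:
Cacna2d3 exon 14: ctccctcaggctcaaaag
Its PSI was 0.785, 0.778 and 0.882 in the controls and 0.682, 0.434 and 0.701 in the libraries labelled KD. All values of the second group were below all controls, by a PSI change of -0.209 that became -0.123 without listed library 2 of that group (edgeR adjusted p = 0.321). In Cacna2d1 a 21 nt exon (exon 23 of Cacna2d1-203) was included at 0.914, 0.956 and 1 in the controls and at 1, 1 and 0.974 in the libraries labelled KD. It overlapped between the groups (edgeR adjusted p = 0.578).

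**Figure D2:**
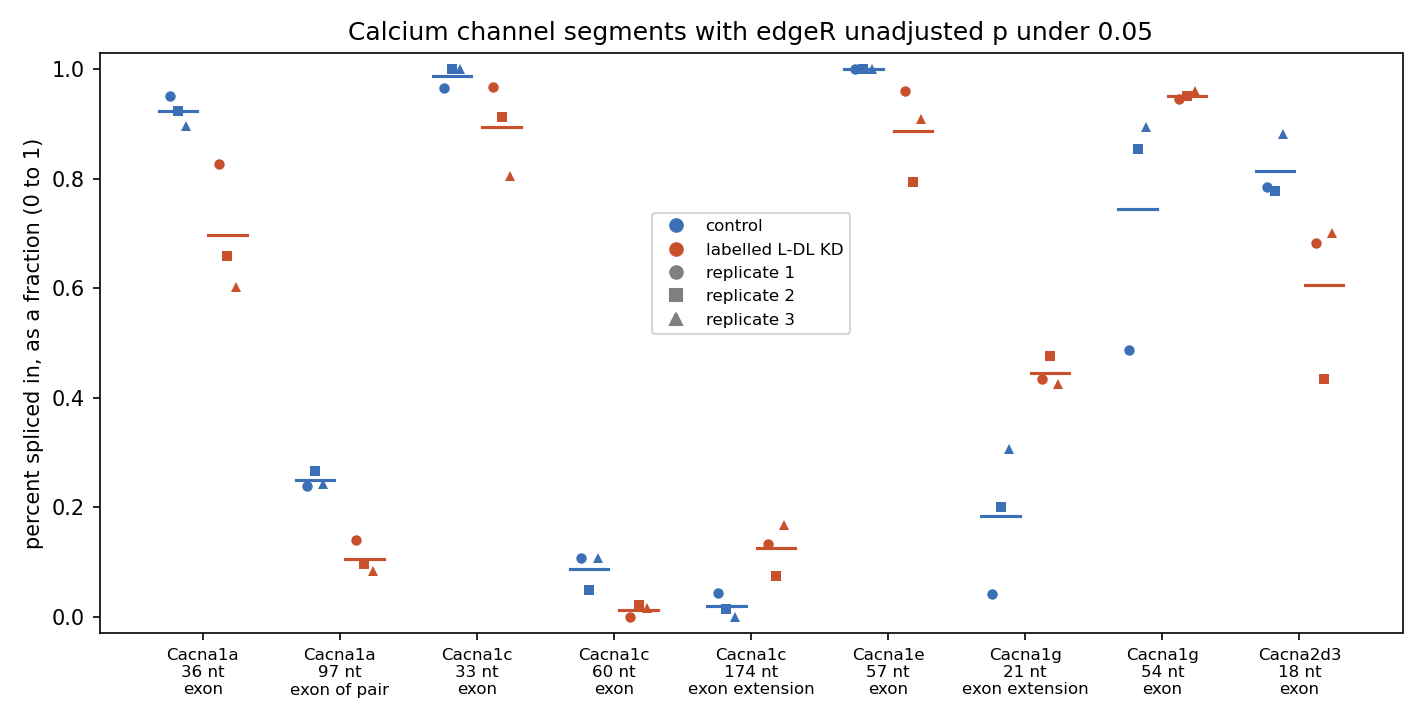
PSI (fraction, linear axis) of the 9 calcium channel segments at an unadjusted edgeR p under 0.05, with controls in blue, libraries labelled KD in orange, marker shapes for the listed libraries and bars for group means. The 36 nt exon of Cacna1a went from a mean of 0.924 to 0.697, and listed control library 1 lay apart from the other controls in both Cacna1g segments.

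Of the 111 channel events, 42 had the mean of 20 junction counts per library and of 1 count of each form that the edgeR test required, with means of 20.2 to 497 counts. Another 48 of the 69 untested ones had a PSI above 0.9 in both groups. At an unadjusted p under 0.05 there were 9 of 42 events (21.4%), against 13.3% of the 18829 events tested over all genes. In 6 of these the PSI was lower and in 3 higher in the libraries labelled KD, while over all genes 8.30% of the events were lower and 4.96% higher at that p. At an adjusted p under 0.05 there were 0 of the 42 by edgeR and 0 by limma on the log2 ratio of the forms, which had 11 at an unadjusted p under 0.05, against 12.6% of all events by that method. Over all genes 0.255% of the events passed the adjusted threshold. PSI did not overlap between the groups in 9 of the 42 events, against 18.4% of all tested events. The 9 events at an unadjusted p under 0.05 belonged to Cacna1a, Cacna1c, Cacna1e, Cacna1g and Cacna2d3.

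Leaving out single libraries divided these 9 events. The 4 segments Cacna1a exon 37, Cacna1a exon 44, Cacna1e exon 19 and the Cacna1c extension stayed at an unadjusted edgeR p under 0.05 in all 6 such fits. The first event of the 54 nt exon of Cacna1g stayed in 5 fits and had a p-value of 0.223 without listed control library 1. The Cacna2d3 microexon stayed in 4, the 33 nt and 60 nt exons of Cacna1c in 2 each and the 21 nt extension of Cacna1g in 1. Their highest p-values were 0.127 without listed library 2 labelled KD, 0.154 without listed library 3 of that group, 0.0816 without listed control library 3 and 0.151 without listed control library 1.

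**Figure D3:**
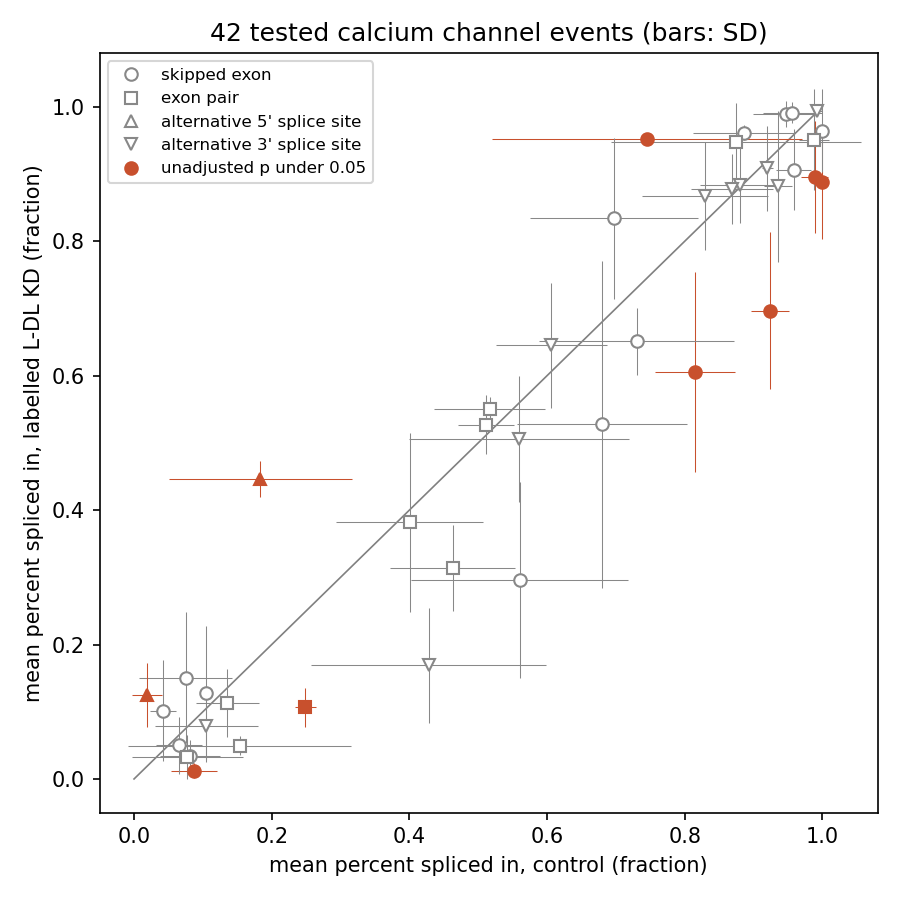
Mean PSI of the 42 tested channel events in controls (horizontal axis) and in the libraries labelled KD (vertical axis), both as fractions, with bars for the SD over 3 libraries, shapes for event types and orange for unadjusted p under 0.05. Points on the diagonal have equal means, and 6 of the 9 orange points lie below it.

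The segments of the channel genes shared features that played no part in choosing them. Of 31 different tested segments that are skipped exons or alternative ends of exons, 28 (90.3%) had a length divisible by 3, against 48.3% of 13101 such segments over all genes. The median segment was 57 nt long, against 93 nt over all genes, and 8 of the 31 were 27 nt or shorter, against 1878 of the 13101. Pairs of exons need a separate reading. In Cacna1b, Cacna1h, Cacna2d1 and Cacna2d3 the listed pair with the most reads had a PSI between 0.277 and 0.595 in all libraries, yet each of its exons was included at 0.916 or more in the single-exon events, so that these pairs do not measure a choice between exons. For Cacna1h the pair had 205 to 349 reads a library, at a mean PSI of 0.511 in the controls and 0.527 in the libraries labelled KD. In Cacna1i a 39 nt extension had a PSI of 0.934, 0.916 and 0.956 against 0.775, 1 and 0.869. An 81 nt extension of the same gene had a PSI of 0.0206, 0.131 and 0.164 against 0.0558, 0.0416 and 0.14. Both overlapped between the groups (edgeR adjusted p = 0.757 and 0.924).

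Per kb of annotated exon, the order of the channel genes differed between the groups. In the controls Cacna1h led at 22.3 ± 0.690 CPM per kb (SD, n = 3), followed by Cacna1e at 17.0 ± 0.339 and Cacna1a at 15.5 ± 0.371, and none of these overlapped with the next. Cacna2d1 and Cacna1b came next and overlapped each other, and the last 5 genes, from Cacna2d3 at 8.42 ± 0.147 to Cacna1d at 5.77 ± 0.129, each overlapped their neighbour. In the libraries labelled KD Cacna1h again led, at 28.4 ± 6.32 CPM per kb. Cacna1g stood second at 12.5 ± 1.55, overlapping with Cacna1e at 12 ± 1.96, and Cacna1i was last at 3.50 ± 0.263 without overlap. Annotated exon length counts all isoforms, so that a level per kb is low for genes with long rare exons.

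The summed level of the 8 pore genes overlapped between the groups, at 96.8, 92.5 and 98.9 CPM per kb in the controls and 87.1, 89.2 and 97.7 in the libraries labelled KD. Within this sum the shares of Cacna1a, Cacna1b, Cacna1e and Cacna1i were lower and those of Cacna1c, Cacna1g and Cacna1h higher without overlap (p = 0.1 each in the same permutation test). The share of Cacna1g went from 7.26% ± 1.26 (SD, n = 3) to 13.8% ± 2.26 and that of Cacna1i from 8.71% ± 0.456 to 3.84% ± 0.176. Shares sum to the whole in each library, so a rise in some of them lowers others.

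**Figure D4:**
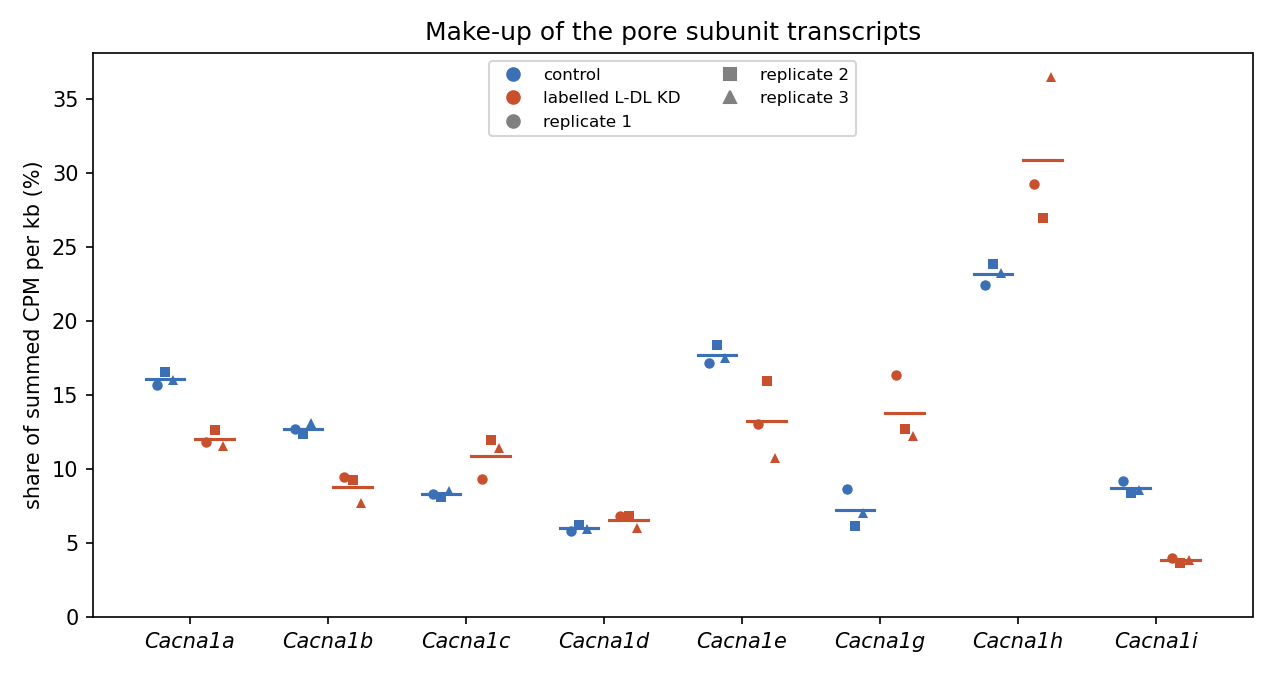
Share of each pore gene in the summed CPM per kb of the 8 pore genes (percent, axis from 0), by library, with controls in blue, libraries labelled KD in orange and bars for group means. The share of Cacna1h had a mean of 23.2% in the controls and 30.9% in the libraries labelled KD, and Cacna1d overlapped between the groups.

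Of 16 further subunit genes of the same channels, 14 were tested. Of these, 8 were called lower and 1 higher, with a median log2 fold change of -0.53. Over all tested genes 15.0% were called lower and 15.6% higher. The neuronal markers had a median log2 fold change of -0.56, and their part in the subunit values was not tested. All 4 beta subunit genes fell. Cacnb1 had 140, 131 and 140 CPM in the controls and 84.6, 74.7 and 66.6 CPM in the libraries labelled KD, which lay apart (log2 fold change -0.86, SE 0.09, adjusted p = 0.000571). Cacnb2, Cacnb3 and Cacnb4 fell by 0.62, 0.68 and 0.68 on the log2 scale (adjusted p = 0.00411, 0.00791 and 0.00125). Of the gamma genes, Cacng2, which encodes stargazin, an auxiliary protein of AMPA receptors, fell most, from 54.2 ± 2.72 to 25.7 ± 2.25 CPM (SD, n = 3; log2 fold change -1.07, edgeR adjusted p = 0.000238). Its relatives Cacng3, Cacng8 and Cacng7 fell by 0.84, 0.72 and 0.41. Cacng6 was higher at low counts, with 18, 27 and 9 reads in the controls against 93, 42 and 44 (log2 fold change 1.62, adjusted p = 0.0276). Cacna1f, Cacna2d2, Cacna2d4, Cacng4 and Cacng5 were not called, with log2 fold changes of 0.16, -0.43, 0.16, 0.12 and 0.26. Cacna1s was too low to test, at 2 to 9 reads, and Cacng1 had no read in any library.

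**Figure D5:**
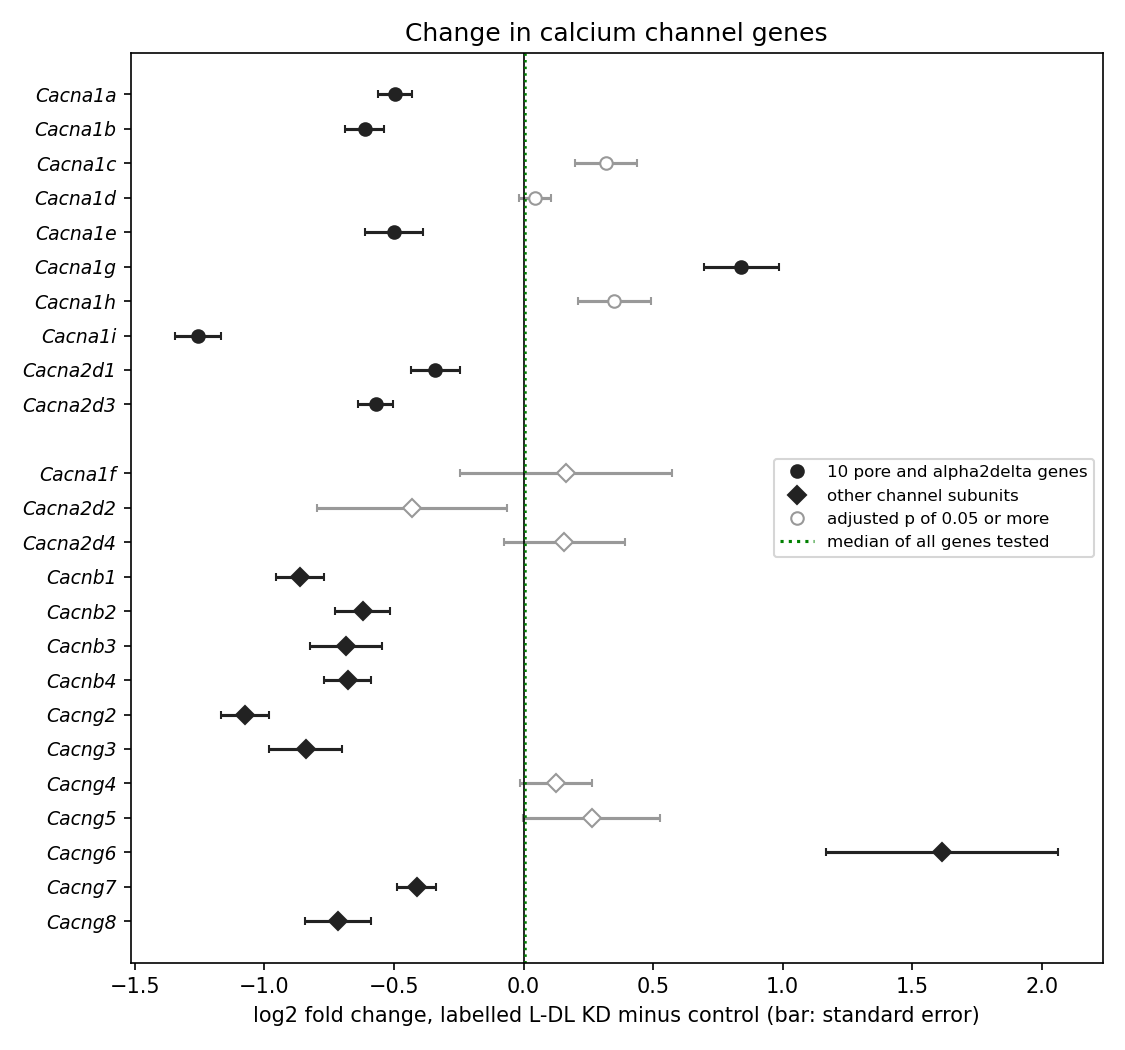
Log2 fold change with its standard error for the 10 channel genes (circles) and the 14 other channel subunit genes tested (diamonds), filled where the edgeR adjusted p is under 0.05. Most filled points lie left of 0, with Cacna1i at -1.26, and Cacna1g and Cacng6 lie to the right.

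Proteins that bind or tune the channels were followed in a list of 22 genes, all tested. Of these, 14 were called lower and 2 higher, with a median log2 fold change of -0.59. Among all tested genes the shares were 15.0% lower and 15.6% higher. The median of the neuronal markers was -0.56, and their part in the values of this list was not tested. Both higher genes act on the channels in known ways. Gem, a small GTPase that inhibits calcium channels, had 6.10, 7.94 and 5.84 CPM in the controls and 19.1, 45.7 and 31.6 CPM in the libraries labelled KD (log2 fold change 2.27, SE 0.31, adjusted p = 0.00140). Cabp1, a calmodulin-like channel regulator, had a log2 fold change of 0.41 (adjusted p = 0.0487). Its CPM ranges overlapped between the groups. Among those called lower, Rem2, another GTPase of the Gem family, fell from 15.5 ± 0.529 to 4.65 ± 1.55 CPM (SD, n = 3; log2 fold change -1.74, edgeR adjusted p = 0.00115). A further GTPase of that family on the list, Rrad, was not called, at a log2 fold change of 0.84 (adjusted p = 0.103). Ppp3r1, the regulatory subunit of calcineurin, fell by 1.12, and Snap25, a fusion protein that binds presynaptic channels and is also on the neuronal marker list, fell by 1.0 on the log2 scale.

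Genes that release calcium from stores or remove it changed less uniformly. Of 23 genes, all tested, 7 were called lower, 2 higher and 14 neither, with a median log2 fold change of -0.23. The shares over all tested genes were 15.0% lower and 15.6% higher. The largest decreases were those of Atp2b1, a plasma membrane calcium pump, by 0.84, Orai2, a subunit of store-operated channels, by 0.77, and Stim2, a calcium sensor of the endoplasmic reticulum, by 0.76 on the log2 scale. Orai1, the main store-operated channel of immune cells, rose from 11.7 ± 0.808 to 18.4 ± 1.46 CPM (SD, n = 3; log2 fold change 0.65, edgeR adjusted p = 0.00597). Itpr2, an IP3 receptor, had a log2 fold change of 0.41 (adjusted p = 0.0173). Both of these stood higher in the same libraries in which all 7 microglial markers did, and the part of those markers was not tested.

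The genes whose CPM followed Cacna1e, the channel gene with the highest mean CPM, most closely over the 6 libraries were Trim9, Ptprz1, Htr1b, Lrrn3 and Fam120b. Pearson's r of log2 CPM was 0.999 for Trim9 and 0.994 for Fam120b. These 6 points form 2 groups and share their library scaling, and the genes were picked as the highest of all tested, so the values are a description. All 5 were called lower, from -1.79 for Htr1b to -0.26 for Fam120b in log2 fold change.

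The genomic surroundings bear on how firmly some counts can be read. Whether gene counting used strand was not stated, and reads of genes on the opposite strand cannot then be told apart. Cacna1c overlaps Dcp1b, Cacna1d overlaps Chdh and Dcp1a, Cacna1h overlaps Tpsg1 and Cacna2d3 overlaps Lrtm1, all protein-coding and on the opposite strand in the annotation. No overlapping gene is annotated for Cacna1e, Cacna1g or Cacna1i, among which are the gene called higher and the one that fell most. Cacna1i lies at chr15:80287238-80398279 on the plus strand and Cacna1g at chr11:94408391-94474198 on the minus strand (GRCm38).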

How the data were processed

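RNA of 6 hippocampal libraries was enriched by oligo(dT) and sequenced by the authors as Illumina read pairs. The authors deposited raw counts of reads per Ensembl gene (GRCm38) and rMATS output with junction counts, effective lengths, and PSI as a fraction per event. The rMATS columns with p-values, FDR and PSI differences are the authors' own comparison. None of them entered a result, and the PSI difference was read only to learn which sample set it subtracts. The submitters' processing notes name HISAT2 (version 2.1.0), HTSeq (version 0.6.1) and Bowtie (version 1.1.2), and whether counting used strand is not given in the sources used here. Alignment, counting and event definition were therefore taken as deposited. Library totals are given with the samples, and intervals from counts cover counting error only.

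edgeR's quasi-likelihood test (version 4.0.16, TMM scaling) was run on each gene that reached 10 counts in 3 libraries or more. Junction counts were tested with edgeR on 12 columns, with a term for each library, inclusion, and inclusion by group. Benjamini-Hochberg adjustment ran over all genes or events. The first sample set of the rMATS output was read as L-DL KD, after the stated order of the difference, and each of the 6 listed libraries also correlated best with the gene count column of the same position. PSI was recomputed from the junction counts and differed from the deposited values by at most 0.0005. Both models were tested on simulated data. R (version 4.3.3), limma (version 3.58.1), DESeq2 (version 1.42.0), Python (version 3.11.15) and scipy (version 1.17.1) were used. Exons were numbered, and sequences read, from GENCODE M21 transcripts of GRCm38.

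Named events were, for each gene, those at an unadjusted p under 0.05, that with the smallest p, the exon pair with most reads and the event with most reads at a control PSI of 0.1 to 0.9. From each gene list up to 3 called rises and 3 called falls with the largest change were named. The channel genes and lists were chosen with earlier results of these data known.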

Additional observations from a re-analysis of the deposited data

How the results depend on the processing

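With 3 libraries a group, small changes could be missed, and events with few junction reads were hard to test. The number of channel genes called higher was 1 and became 3 without a filter on low counts and 3 with DESeq2, the added genes being Cacna1c and Cacna1h, and 1 to 3 with single libraries left out. The number called lower was 6 and ranged from 5 to 6 with single libraries left out, where Cacna2d1 was the gene lost. The median log2 fold change of the channel genes was -0.42 and ranged from -0.44 to -0.33 with single libraries left out. Replicate numbers did not pair the libraries, since deviations from the group means of same-numbered libraries correlated at 0.05, 0.13 and -0.11, and not every library correlated best with its own number. With the replicate number as a block, 5 channel genes were lower and 1 higher, at a median of -0.42, and over all genes 4635 were called in place of 5379. Cacna2d1 was again the gene lost. The splicing output gives no replicate numbers, though its listed order matched the gene count columns, and no block was fitted there. Of 110 values of single channel genes under the alternatives, 98 kept their side of the threshold, 5 lost and 7 gained a call, and none changed sign while called. With a mean of at least 50 junction counts, 4 of 18 channel events were at an unadjusted p under 0.05, in place of 9 of 42, against 14.5% of all events at that minimum. With 1 event for each segment the count was 8 of 41, against 13.4% of all events at that setting. Cacna1g exon 26 was then measured by its other event. With single libraries left out it ranged from 6 to 9, against 10.4% to 12.4% of all events, and the count at an adjusted p under 0.05 ranged from 0 to 1, the 1 being Cacna1a exon 44. Of 161 values of PSI changes under the alternatives, 159 moved by less than the spread between libraries. The exceptions were those of the Cacna1c extension (0.183) and 60 nt exon (-0.101) without effective lengths.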
